A study of Mus musculus with 3 samples.

Results

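Runx3 binding and H3K4me1 were examined at 3 genes of resting natural killer (NK) cells, namely Tbx21, which encodes T-bet, Eomes, which encodes Eomesodermin, and Tbkbp1, the gene next to Tbx21. The genes were chosen by symbol, and each was taken with 100 kb on either side of its body. In these windows lay 26 of the 15524 Runx3-bound regions (called peaks here) and 36 of the 49902 H3K4me1-marked regions. All 3 chromatin immunoprecipitation sequencing (ChIP-seq) samples came from freshly isolated, unstimulated splenic NK cells of ICR mice, with no mutant, allele or treatment in any of them. The 3 samples were precipitated with a polyclonal antibody to Runx3, with a monoclonal antibody to H3K4me1 and with rabbit NIS (non-immune serum), the control. The labels give neither the age nor the number of the mice, and name NKp46 as the sorted marker where the methods name DX5. Each antibody was represented by 1 list of coordinates without a score, a read number or a summit, so the depth behind a region is unknown and no spread between replicates could be computed. Differences in signal could not be tested, and all values below are positions, widths, counts and shares of listed regions.

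T-bet and Eomes are transcription factors of the T-box family, which bind DNA through a shared domain. In NK cells they act in the development and maturation of the lineage and on genes of its effector functions, such as interferon gamma, perforin and granzymes. Runx3 is a RUNX family factor that is abundant in cytotoxic lymphocytes and binds a short consensus together with its partner Cbfb. Tbkbp1 encodes an adaptor that binds the kinase TBK1, which acts in antiviral signaling. H3K4me1, the monomethylated form of lysine 4 of histone H3, is typical of enhancers and of the flanks of active promoters, while the base of transcription start itself often carries other marks.

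The chromatin was first set against markers of the sorted cells. All 6 NK cell markers (Ncr1, Klrb1c, Itga2, Klrk1, Gzma and Nkg7) had a Runx3 peak and an H3K4me1 region within 1 kb of the start, whereas 0 of 6 T cell, 0 of 6 B cell and 0 of 6 myeloid markers had such a Runx3 peak, against 25.8% of all protein-coding genes. H3K4me1 lay within 1 kb of the start in 3 of the 6 T cell, 2 of the 6 B cell and 2 of the 6 myeloid markers, against 56.8% of all genes. With 6 genes a list, counts of 0 to 3 are not far from these shares. Within 5 kb of the body the contrast was weaker. A Runx3 peak lay there in 6 NK, 1 T cell, 2 B cell and 2 myeloid markers, against 39.8% of all genes. An H3K4me1 region lay there in 6, 4, 5 and 4 of them, against 67.7%. A listed region shows chromatin, not expression, and the share of other cells was not measured.

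The windows of the 3 genes were rich in Runx3 peaks and in H3K4me1 cover. Tbx21 held 17 Runx3 peaks, Tbkbp1 held 15 and Eomes held 9, against a median of 2 (quartiles 0 and 5) over the windows of 22350 protein-coding genes. Only 138 of these genes (0.617%) had as many peaks as Tbx21 or more, and 260 (1.16%) as many as Tbkbp1. For Eomes the number was 1939, so that 8.68% of all genes had 9 peaks or more, a place far less extreme than that of Tbx21. The Tbx21 and Tbkbp1 windows overlap and share 15 peaks, so their counts are not independent. Per 100 kb of window the numbers were 7.82 for Tbx21, 6.97 for Tbkbp1 and 4.33 for Eomes.

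**Figure D1:**
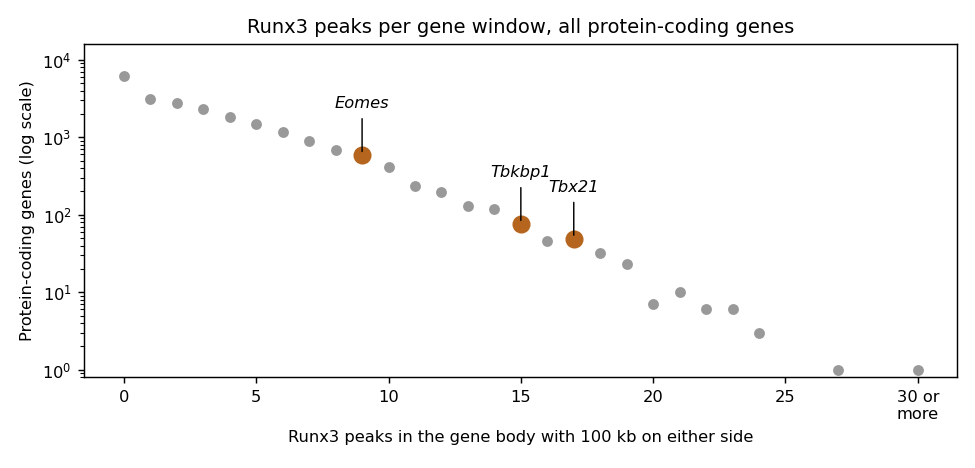
Number of protein-coding genes (vertical axis, log scale) by number of Runx3 peaks in the gene body with 100 kb on either side (horizontal axis). Each grey point is a number of peaks and the 3 brown points are those of Eomes (9 peaks), Tbkbp1 (15) and Tbx21 (17), which all lie in the right-hand tail above the median of 2.

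In H3K4me1 the 3 genes stood closer together. H3K4me1 regions covered 38.4% of the Tbx21 window, 34.5% of the Tbkbp1 window and 33.8% of the Eomes window, against a median of 7.71% (quartiles 2.07 and 15.5%) over all protein-coding genes. As much cover or more was found at 339 genes (1.52%) for Tbx21, 546 (2.44%) for Tbkbp1 and 609 (2.72%) for Eomes. The number of H3K4me1 regions set them apart less, with 18, 13 and 18 regions against a median of 9 (quartiles 3 and 15). The 13 regions of Tbkbp1 thus lay between the quartiles of all genes. The comparison of Tbx21 with Eomes depended on the window. With 50 kb on either side the cover was 55.1% at Tbx21 and 29.5% at Eomes, and the peaks whose nearest protein-coding start was the member's own numbered 8 at both genes.

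Near the genes themselves, all 3 members carried Runx3 within 5 kb of the body, as had 39.8% of protein-coding genes, and an H3K4me1 region there, as had 67.7%. There were 4 Runx3 peaks within 5 kb of the body of Tbx21, 6 for Tbkbp1 and 3 for Eomes. Within 1 kb of the start, 1 of the 3 members (Eomes) had a Runx3 peak, against 25.8% of all genes, and all 3 had an H3K4me1 region, against 56.8%.

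Tbx21 (ENSMUSG00000001444.2) lies on the minus strand of chromosome 11 at chr11:96959385-96976645 in mm9, the genome build of the files and of all coordinates given here. Its body of 17.3 kb was 83.5% covered by H3K4me1 and held 3 Runx3 peaks. The peak nearest to the start was centred 2.64 kb after it in an intron (885 bp wide), and the others lay 11.2 kb after the start in an intron (1371 bp) and 13.2 kb after it over a coding exon (650 bp). Most of the peaks lay before the gene. The upstream flank of 100 kb held 11 peaks and was 45.3% covered, whereas the downstream flank held 3 peaks and was 23.7% covered.

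The stretch of 20.8 kb between Tbx21 and Tbkbp1 was marked almost throughout. H3K4me1 covered 99.8% of it, and 5 Runx3 peaks lay there, centred 3.16, 8.42, 13.9, 15.5 and 17.2 kb before the Tbx21 start. All 5 were intergenic and wholly inside H3K4me1. They belonged to 1 H3K4me1 region of 35.7 kb (chr11:96976698-97012414) that ran from just before the Tbx21 start through nearly the whole of Tbkbp1. Only 33 of all 49902 H3K4me1 regions (0.0661%) were as wide or wider. This region held 9 Runx3 peaks, a number reached by 0.01% of H3K4me1 regions, whose median width was only 1801 bp. Per 10 kb it held 2.52 peaks. In the other regions of the Tbx21 window with a peak, this density ran from 1.84 (16.3 kb wide) to 8.91 (1.1 kb wide). A second wide region (16.3 kb, chr11:96957444-96973789) covered most of the Tbx21 body and touched 3 peaks, and 294 regions (0.589%) were as wide or wider.

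**Figure D2:**
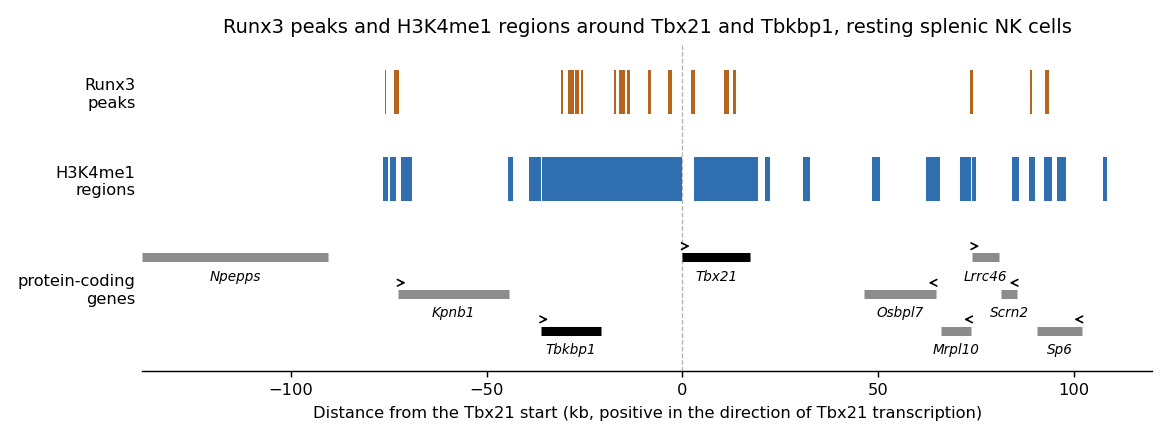
Map of Runx3 peaks (brown), H3K4me1 regions (blue) and protein-coding genes (Tbx21 and Tbkbp1 in black, others in grey, arrows at starts pointing in the direction of transcription) by distance in kb from the Tbx21 start. Runx3 peaks crowd in the block of H3K4me1 from Tbkbp1 to the Tbx21 body, and the Tbx21 start itself stands in a gap between the 2 widest regions.

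Sequences from this stretch are given to show how the RUNX consensus sits in it. The 200 bases before the Tbx21 start (chr11:96976646-96976845) overlapped no Runx3 peak. The central 200 bases are shown of the nearest upstream peak (3.16 kb before the start, chr11:96979703-96979902) and of the peak 13.9 kb before the start (chr11:96990414-96990613). All are written 5′ to 3′ on the minus strand, the strand of Tbx21, and capitals mark matches to the RUNX consensus in any of its 4 forms on either strand. The forms without a CpG are TGTGGT and TGTGGC, and those with a CpG are TGCGGT and TGCGGC.
Tbx21 start: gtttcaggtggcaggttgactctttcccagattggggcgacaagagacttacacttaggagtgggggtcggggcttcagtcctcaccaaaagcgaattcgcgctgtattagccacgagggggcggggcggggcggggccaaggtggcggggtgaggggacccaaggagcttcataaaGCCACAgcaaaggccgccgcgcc
Peak 3.16 kb before Tbx21: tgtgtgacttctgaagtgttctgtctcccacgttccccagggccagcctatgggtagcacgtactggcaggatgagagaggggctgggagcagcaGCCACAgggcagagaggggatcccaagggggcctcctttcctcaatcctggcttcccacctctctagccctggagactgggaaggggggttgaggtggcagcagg
Peak 13.9 kb before Tbx21: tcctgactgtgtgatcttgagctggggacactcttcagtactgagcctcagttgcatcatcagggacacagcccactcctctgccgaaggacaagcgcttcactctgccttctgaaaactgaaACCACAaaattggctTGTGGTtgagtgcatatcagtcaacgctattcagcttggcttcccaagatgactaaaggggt
The consensus was present with 1 match in the window before the Tbx21 start, as at 31.8% of protein-coding genes, although no peak was listed there, and with 1 match in the central bases of the peak 3.16 kb before it, of 4 in the whole peak. In the central bases of the peak 13.9 kb before the start 2 matches stood close together, 1 on each strand.

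The remaining peaks of the Tbx21 window lay far from the gene. Before the start these were the 4 peaks of the Tbkbp1 body and 2 peaks at Kpnb1, which encodes the nuclear import receptor importin beta. The peak farthest upstream (449 bp, chr11:97052280-97052728) lay 75.9 kb before the Tbx21 start, and its neighbour (1224 bp) overlapped the Kpnb1 start and was 43.2% covered by H3K4me1. After the start, 3 peaks lay 73.7 to 93.1 kb away. The farthest (1138 bp, chr11:96882985-96884122) overlapped an exon of Sp6, which encodes a zinc finger factor, and the peak 73.7 kb away overlapped the neighbouring starts of Lrrc46 and Mrpl10. Between that peak and the first peak inside the Tbx21 body no Runx3 peak was listed over 59752 bp, although H3K4me1 regions occurred there, and Osbpl7 in that interval had no peak within 5 kb of its body. Of the 17 peaks on chromosome 11, 8 had the Tbx21 start as their nearest protein-coding start, 4 the Tbkbp1 start and 5 the start of another gene.

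Tbkbp1 (ENSMUSG00000038517.8) lies on the same strand at chr11:96997485-97012809, with its end toward the Tbx21 start. Its body of 15.3 kb was 97.4% covered by H3K4me1 and held 4 Runx3 peaks, which lay 5.39 to 10.5 kb after its start. Among them was the widest peak of both chromosome 11 windows (1645 bp, chr11:97004347-97005991, in an intron). The flank before Tbkbp1 had 2 peaks and 9.6% cover, and the flank after it, toward Tbx21, 9 peaks and 49.7% cover. Its farthest peaks were those 39.7 kb before the start and 109.9 kb after it, which are the Kpnb1 and Lrrc46 to Mrpl10 peaks given above. Both genes thus faced the same marked block, Tbx21 with its upstream side and Tbkbp1 with its downstream side.

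The central 200 bases of neighbouring peaks in the Tbkbp1 body are given because they hold the RUNX consensus together with the ETS consensus (AGGAAGT or CGGAAGT), bound by the family of Ets1. The first peak (chr11:97001932-97002667, centre chr11:97002200-97002399) lay 10.5 kb after the Tbkbp1 start, and the second (chr11:97002976-97004175, centre chr11:97003476-97003675) 9.23 kb after it. Both are on the minus strand, with RUNX matches in capitals.
Peak 10.5 kb after the Tbkbp1 start: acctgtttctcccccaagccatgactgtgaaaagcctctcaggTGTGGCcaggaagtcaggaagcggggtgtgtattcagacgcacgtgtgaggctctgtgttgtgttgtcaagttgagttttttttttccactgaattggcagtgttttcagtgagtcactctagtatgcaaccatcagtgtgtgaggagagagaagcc
Peak 9.23 kb after the Tbkbp1 start: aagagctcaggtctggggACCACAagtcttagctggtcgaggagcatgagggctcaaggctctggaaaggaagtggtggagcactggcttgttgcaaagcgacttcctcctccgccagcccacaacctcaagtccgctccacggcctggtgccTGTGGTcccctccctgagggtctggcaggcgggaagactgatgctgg
In the first, the RUNX match began at base 44 and an ETS match at base 51, counted from the 5′ end. In the second, RUNX matches began at bases 19 and 154 and ETS matches at bases 68 and 102. The widest peak, which lay beside them, had 3 RUNX and 3 ETS matches over its whole width but 0 RUNX matches in its central 200 bases.

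Eomes (ENSMUSG00000032446.8) lies on the plus strand of chromosome 9 at chr9:118387330-118395250 and has no other protein-coding gene in its window but Golga4, which encodes a protein of the Golgi. Its 9 Runx3 peaks fell into 3 places. A distal group of 5 peaks lay 72.8, 61.6, 59.5, 57.0 and 54.1 kb before the start, within 20.2 kb. A single peak lay over the start. The other 3 lay after the gene or in Golga4, 8.38, 10.2 and 41.0 kb after the start.

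The distal group stood in dense H3K4me1. From 80 to 50 kb before the start H3K4me1 covered 83.3%, and all 5 peaks lay wholly inside it. The peaks were between 668 and 1683 bp wide, and the one nearest to Eomes (chr9:118332428-118334110) was the widest of the Eomes window. Of these peaks, 4 lay in 1 region of 13.6 kb (chr9:118323427-118337064), and 468 regions (0.938%) were as wide or wider. The farthest (chr9:118313890-118315086) lay in a region of 8282 bp. A region of 12.4 kb beyond it (chr9:118296034-118308385) held 0 Runx3 peaks, so that wide H3K4me1 and Runx3 did not always go together at this locus. From 50 to 1 kb before the start there were likewise 0 Runx3 peaks, although 5 H3K4me1 regions covered 25.7% of that stretch, the widest of them 4671 bp.

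**Figure D3:**
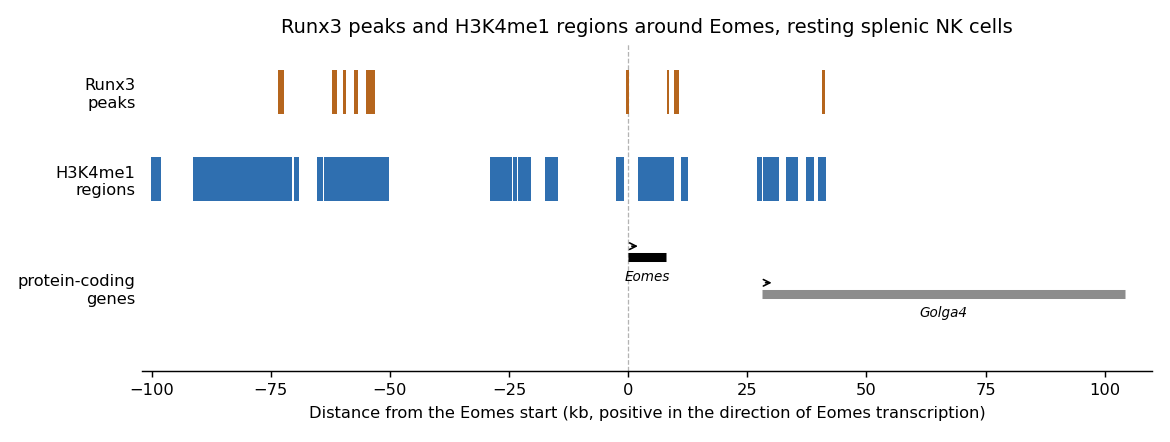
Map of Runx3 peaks (brown), H3K4me1 regions (blue) and protein-coding genes (Eomes in black, Golga4 in grey, arrows at starts) by distance in kb from the Eomes start. The 5 distal peaks lie 72.8 to 54.1 kb before the start inside wide H3K4me1 regions, the stretch from 50 to 1 kb before the start has H3K4me1 without Runx3, and 1 peak lies over the start in a gap of H3K4me1.

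At the Eomes start the order was turned around. A Runx3 peak of 721 bp (chr9:118386832-118387552), centred 138 bp before the start, covered the starts of 2 of the 3 annotated transcripts, which begin 0 and 132 bp from the gene start, while the third begins 649 bp after it. This was the only 1 of the 26 peaks that touched no H3K4me1 region. Among all Runx3 peaks over a protein-coding start, 4.03% (169 of 4197) overlapped no H3K4me1. Its sequence is one of 4 among the 26 in which a run of 40 bases, the read length, occurs more than once within the peak, which holds for 5.49% of all peaks. The others are the peaks 2.64 kb after and 15.5 kb before the Tbx21 start and 10.2 kb after the Eomes start, and the part of such repeats in these peaks was not tested. After the gene, the peak 8.38 kb from the start (564 bp) lay just past the Eomes end inside H3K4me1, and the peak 10.2 kb from the start (982 bp) was only 3.2% covered. The farthest downstream peak (620 bp, chr9:118427974-118428593) lay in an intron of Golga4.

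The sequences at Eomes contrast the start with the distal group. The first is the 200 bases before the start (chr9:118387130-118387329), all within the start peak. The others are the central 200 bases of the peaks 61.6 kb (chr9:118325633-118325832) and 59.5 kb (chr9:118327699-118327898) before the start, the pair in which a RUNX match lay within 50 bp of a T-box half-site (GGTGTGA on either strand), the short word to which T-box proteins bind. All are on the plus strand, with RUNX matches in capitals.
Eomes start: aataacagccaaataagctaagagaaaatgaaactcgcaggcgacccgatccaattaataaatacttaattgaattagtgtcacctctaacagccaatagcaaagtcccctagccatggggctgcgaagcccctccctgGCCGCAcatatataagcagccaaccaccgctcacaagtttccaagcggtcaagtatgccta
Peak 61.6 kb before Eomes: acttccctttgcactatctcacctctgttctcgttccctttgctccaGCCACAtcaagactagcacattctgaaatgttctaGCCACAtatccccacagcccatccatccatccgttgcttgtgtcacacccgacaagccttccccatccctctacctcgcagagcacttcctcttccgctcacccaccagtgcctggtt
Peak 59.5 kb before Eomes: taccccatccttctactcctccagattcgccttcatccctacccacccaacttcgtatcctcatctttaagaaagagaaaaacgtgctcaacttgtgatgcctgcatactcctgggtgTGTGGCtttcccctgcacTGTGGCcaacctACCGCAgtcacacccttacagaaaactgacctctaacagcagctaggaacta
The start window holds 1 RUNX match, on the minus strand. In the peak 61.6 kb before the start, RUNX matches begin at bases 48 and 83 and the T-box half-site, read on the minus strand, at base 125. In the peak 59.5 kb before the start, 3 RUNX matches begin at bases 119, 137 and 149 and the half-site at base 156.

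The start base of each of the 3 genes lay outside the listed H3K4me1 regions with marked chromatin close by. Edges of regions called from sonicated fragments are not exact to the base. Distances such as the 53 and 13 bp below therefore do not firmly place a start outside the mark. At Tbx21 an H3K4me1 region ended 53 bp before the start and the next began 2856 bp after it, a gap of 2908 bp. At Eomes the regions were 818 bp before and 2133 bp after the start, a gap of 2950 bp. At Tbkbp1 they were 13 bp before and 395 bp after it, so that the gap was 407 bp wide, and the other 6 annotated Tbkbp1 transcripts start inside the mark. Of 12696 protein-coding genes with H3K4me1 within 1 kb of the start, 39.2% had their start base outside it. A start base outside the mark with a region within 3 kb on both sides, as in these 3 genes, was found at 16.5% of all protein-coding genes, and the limit of 3 kb was set after these gaps had been seen.

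The gaps of Tbx21 and Eomes were alike in width and differed in Runx3. At Eomes the start peak lay wholly in the gap. At Tbx21 no Runx3 peak lay within 1 kb of the start, and the peak 2.64 kb after it reached from the far edge of the gap into the mark, with 26.1% of its length marked. At Tbkbp1 no peak lay in the gap and the nearest was centred 5388 bp after the start.

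**Figure D4:**
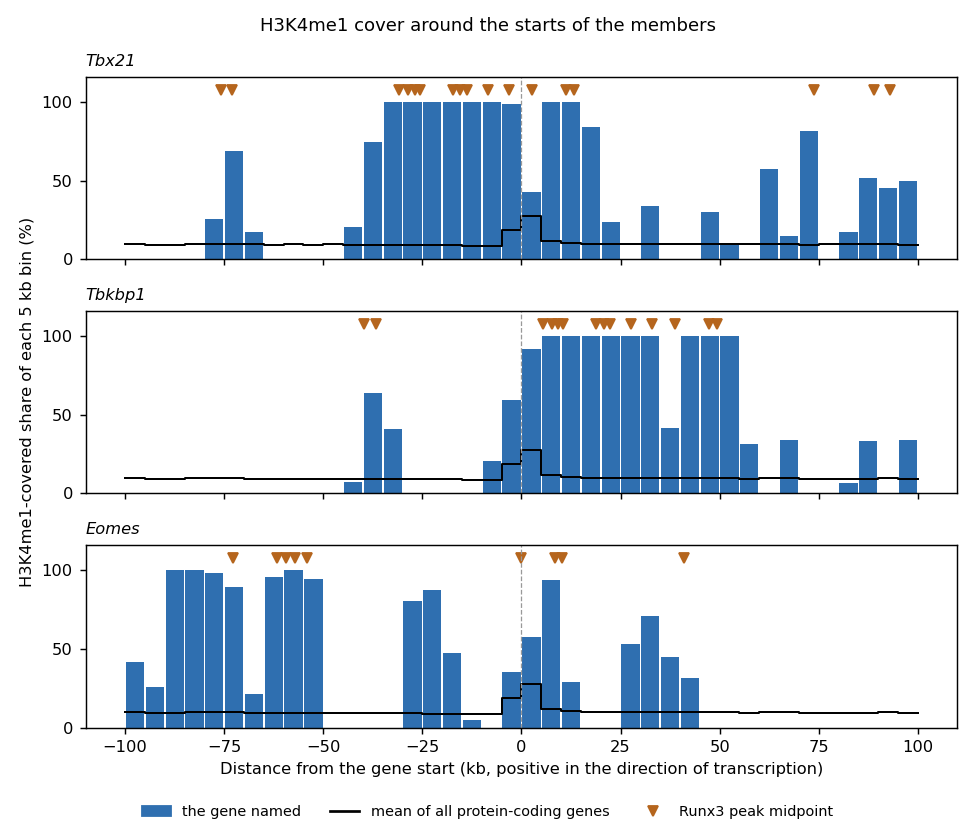
H3K4me1-covered share of each 5 kb bin (vertical axis, percent) by distance from the gene start in kb (horizontal axis) for Tbx21, Tbkbp1 and Eomes (blue bars), with the mean over all protein-coding genes (black line) and the midpoints of Runx3 peaks (brown triangles). Tbx21 is marked on both sides of its start, with the widest block before it. Tbkbp1 is marked mainly after its start, and Eomes in separate blocks, with the most extensive 90 to 50 kb before its start.

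Over both loci, the 26 peaks were much like Runx3 peaks in general. Of the 26, 25 overlapped H3K4me1 (96.2%, exact 95% binomial interval 80.4 to 99.9%), against 95.7% of all Runx3 peaks, and 22 had their midpoint inside a region, against 83.6%. In the other direction 12 of the 36 H3K4me1 regions held a Runx3 peak, against 28.6% of all regions. The intervals cover counting error only, and peaks of 1 locus share their chromatin and are not replicates. The median width was 860 bp (range 449 to 1683) against 825 bp.

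The RUNX consensus was found in 25 of the 26 peaks (96.2%) and in 93.3% of all peaks. The exception was a peak 89.0 kb after the Tbx21 start (chr11:96887323-96888011), which held an ETS match. In the central 200 bases 21 of the 26 had a match, against 69.2% of all peaks. Of the 4 forms, TGTGGT occurred in 14 peaks (53.8%, against 65.5% of all), TGTGGC in 16 (61.5%, against 54.1%), TGCGGT in 6 (23.1%, against 24.7%) and TGCGGC in 4 (15.4%, against 26.1%). All 4 general shares lie inside the intervals of the members' shares. The start peak of Eomes held a single match, TGCGGC. The median number of matches per kb was 3.18, against 2.96.

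The ETS consensus occurred in 12 of the 26 peaks (46.2%, against 41.8% of all), and within 50 bp of a RUNX match in 5 (19.2%, against 16.9%). These 5 comprised 4 peaks on chromosome 11 and 1 on chromosome 9. The shares lay close to those of all peaks, and the intervals (26.6 to 66.6% and 6.6 to 39.4%) are too wide to separate them.

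The T-box half-site was found in 7 of the 26 peaks (26.9%, interval 11.6 to 47.8%), against 16.7% of all Runx3 peaks. The matches were unevenly placed. All 5 distal Eomes peaks had at least 1, with 7 matches in all, whereas 0 of the other 4 Eomes peaks and 2 of the 17 peaks on chromosome 11 had one. A RUNX match lay within 50 bp of a half-site in 2 peaks (7.69%, against 6.13%), both of the distal group. The distal group was set apart after the positions of the peaks had been seen, so the split is a description without a test. The half-site and the RUNX consensus can share bases, and a match is not evidence of a bound T-box protein. The 9 Eomes peaks had a lower median GC content (47.9%) than the 17 peaks on chromosome 11 (54%), with 50.7% over all peaks.

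The 15 other T-box genes all had fewer Runx3 peaks in their windows than Tbx21 (17), as had 99.4% of all protein-coding genes. Of the 15, 14 had fewer than Eomes (9), as had 91.3% of all genes, so these counts do not set the family apart. Of the 15, 13 had 3 peaks or fewer, against 64.2% of all protein-coding genes, 4 had 0, against 27.6%, and the median was 1, against 2. Their median H3K4me1 cover was 8.97%, close to the 7.71% of all genes. The windows of Tbx2 and Tbx4 overlap, as do those of Tbx3 and Tbx5, so the counts of these genes are not independent. Tbx6, which acts in the mesoderm of the embryo, had the most peaks (11, with 26.8% cover), followed by Tbx10 (7, with 20.5%). Tbx18 and Tbx20, which act in the development of the heart, had 0 Runx3 peaks and 0 H3K4me1 regions, as had Tbx22. Only Mga, a T-box protein that also binds as a partner of Max, was bound within 1 kb of the start, and 3 of the 15 had a peak within 5 kb of the body, against 25.8 and 39.8% of all genes.

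Factors and receptors that act beside or before T-bet and Eomes in NK cells formed a further list of 13 genes. All 13 carried Runx3 within 5 kb of the body, against 39.8% of all genes, and 5 had a peak within 1 kb of the start, against 25.8%. Their median was 7 peaks in the window and 22.3% cover. Runx3 itself had the most (23 peaks, 55.8% cover), then Il2rb, the receptor chain shared by interleukin 2 and interleukin 15 (21 peaks, 56.5%). Il15ra, the private chain of the interleukin 15 receptor, and Tox, a nuclear factor of NK cell development, had the fewest, with 5 each. Tbx21 with 17 peaks stood below only Runx3 and Il2rb in this list.

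Genes known as targets of T-bet or Eomes formed a list of 11. All 11 carried Runx3 within 5 kb of the body (39.8% of all genes) and H3K4me1 within 1 kb of the start (56.8%), and in 5 a Runx3 peak lay within 1 kb of it (25.8%). The median was 8 peaks and 29.7% cover. After Il2rb, which stood in both lists together with Prdm1 and Zeb2, Ccl5, a chemokine, and S1pr5, a receptor by which NK cells leave lymphoid organs, had the most (14 peaks each, with 46.3 and 42.8% cover). The chemokine receptors Cxcr3 (2 peaks, 11.1%) and Cx3cr1 (3 peaks, 24.1%) had the fewest.

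The partners of TBK1, set beside Tbkbp1, had fewer peaks than Tbkbp1, as had 98.8% of all protein-coding genes. The 6 genes had a median of 3.5 peaks and 14.5% cover, and 4 of the 6 carried Runx3 within 5 kb of the body, against 39.8% of all genes. Irf3, the factor that the kinase activates, had the most (10 peaks), then Azi2 (7), while Ikbke, the related kinase, had 3 and the adaptor Tank 1. Tbkbp1 with 15 peaks lay above all 6, but 15 of its 15 peaks are also in the Tbx21 window.

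**Figure D5:**
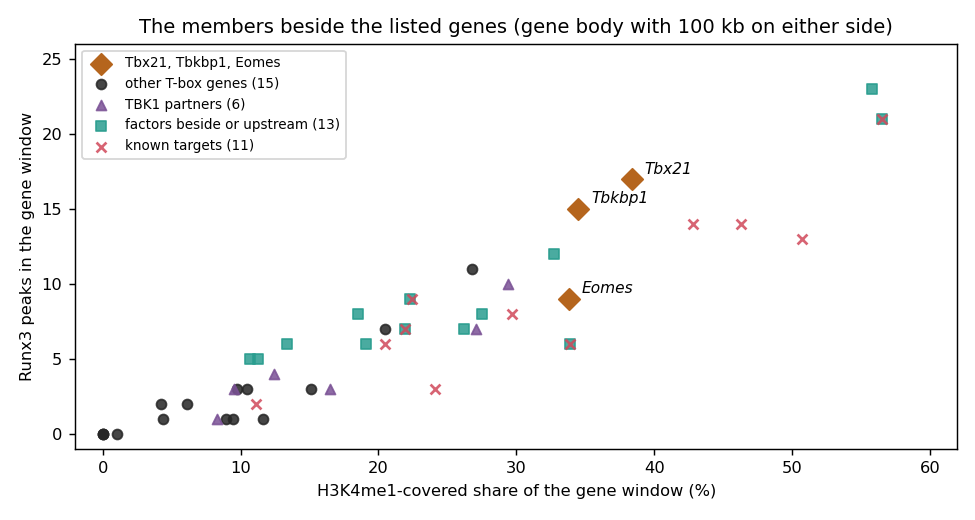
Runx3 peaks in the gene window (vertical axis) by H3K4me1-covered share of the window in percent (horizontal axis) for Tbx21, Tbkbp1 and Eomes (brown diamonds) and the 4 lists, where a gene in 2 lists bears both symbols. Most of the other T-box genes lie at the lower left, with 4 at 0 peaks, while Tbx21 (17 peaks) and Tbkbp1 (15) lie above Eomes (9) at similar cover.

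The genes whose H3K4me1 profile was most like that of each member were found over 40 bins of 5 kb around the start, by Pearson's r over bins among 22321 genes, as a description in which neighbouring bins are not independent. For Tbx21 these were Nbeal2 (r = 0.760, 13 Runx3 peaks), Gm9949 (0.710, 3 peaks) and Ptprv (0.698, 6 peaks). For Tbkbp1 they were Eif2c2 (r = 0.882, 13 peaks), Stk10 (0.871, 8 peaks) and Cd226, an activating receptor of NK and T cells (0.853, 9 peaks). For Eomes they were A230052G05Rik (r = 0.717, 12 peaks), Adam9 (0.691, 3 peaks) and Gzmf, a granzyme (0.686, 5 peaks). These 9 genes had 3 to 13 peaks, against a median of 2 (quartiles 0 and 5) over all protein-coding genes. They were picked by H3K4me1, which 95.7% of all Runx3 peaks overlap. None had as many peaks as Tbx21, but 99.4% of all genes had fewer.

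The remaining neighbours showed that the binding was not spread evenly over the genes of the windows. At the starts of Kpnb1, Lrrc46 and Mrpl10 a Runx3 peak lay within 1 kb, the last 2 sharing 1 peak. Scrn2 had 1 and Sp6 had 2 peaks within 5 kb of the body and 0 at the start, and Golga4 had 1 in its body. Osbpl7 and Npepps had 0 within 5 kb of the body, although both had H3K4me1 within 1 kb of the start. Over the 8 neighbouring bodies H3K4me1 cover ran from 4.7% at Npepps through 25.1% at Osbpl7 and 38.7% at Mrpl10 to 41.3% at Sp6, against 83.5% of Tbx21, 97.4% of Tbkbp1 and 73.1% of Eomes.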

How the data were processed

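Per the labels and the methods, chromatin of splenic NK cells was fixed in 1% formaldehyde, and reads of 40 bp were aligned to mm9 with ELAND and kept where unique. CASAVA 1.7 is named in the submitters' processing notes. The authors joined the reads of biological repeats and called enriched regions with MACS against NIS. The labels speak of a first experiment for each sample. The Runx3 list holds 15524 regions, the number that the paper gives for resting NK cells after joining reads. For H3K4me1 the paper's text gives no such number, so whether that list rests on joined reads is not certain. Only called regions were listed, so weaker binding is not seen, and repeated sequence gives few unique reads. The 2 deposited lists held coordinates and a running name. NIS had no list and entered only as the authors' background.

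Regions were joined to GENCODE M1 genes of the same build with Python 3.11.15, NumPy 2.4.6 and pysam 0.24.0. An overlap needed 1 bp, and distances were taken from midpoints to the gene start. Consensus words were searched on both strands in the mm9 sequence. Intervals are exact (SciPy 1.17.1). No test was made, since each antibody had 1 list. The counting functions alone were checked, on made regions and made sequence with known answers. The genes and lists were chosen with earlier results of these data known. Named are the members, the protein-coding genes in their windows, the 3 genes most alike for each, the 2 genes with most and the 2 with fewest peaks of each list, and the peaks over a start, widest or farthest. The Eomes distal group, the peaks whose sequence is shown and the other genes and peaks given singly were chosen after their values were seen. Alternatives changed the window, the overlap and width rules, the consensus and the set of genes.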

Additional observations from a re-analysis of the deposited data

How the results depend on the processing

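Of 71 alternatives over 20 results, 22 kept a count within 1.5 times or a share or place within its 95% counting interval, and 49 did not. That interval is narrow for shares of many bases or genes, so small shifts count among the 49. Flanks set the counts. With 5 kb the Runx3 peaks of Tbx21, Tbkbp1 and Eomes numbered 4, 6 and 3, with 50 kb Eomes had 4, with 200 kb Tbkbp1 had 24. Keeping peaks wider than the median left 10, 9 and 4. Counting only peaks nearest to the member's own start left 8 for Tbx21, 4 for Tbkbp1 and 8 for Eomes, so that Tbx21 and Eomes no longer differed. H3K4me1 regions numbered 3, 2 and 3 with 5 kb and 36, 34 and 30 with 200 kb, with 50 kb 8 at Tbx21 and 8 at Tbkbp1, with wide regions alone 10, 7 and 10, and 11 at Eomes after merging. The covered share was 82.5, 90.5 and 60.2% with 5 kb, 55.1, 54.5 and 29.5% with 50 kb, 32.4, 29.6 and 25.9% with 200 kb, and 33.6, 30.8 and 28.8% with wide regions alone.

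The places among all genes moved little under the alternatives tried, all of which kept the reach of 100 kb. Whether they hold with narrower or wider flanks, or with only the peaks nearest to a gene's own start, was not tested. By Runx3 peaks, fewer were found at 99.4% of genes for Tbx21 (99.6% with 100 kb around the start, 99.5% among all annotated genes), 98.8% for Tbkbp1 (99.1% per 100 kb and among all genes) and 91.3% for Eomes (93.4% around the start, 94% per 100 kb, 93.1% among all genes). By cover around the start, the places were 98.7% for Tbx21 and 97.2% for Tbkbp1.

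The motif shares depended on the word. TGTGGT alone gave 53.8% of the 26 peaks. The T-box share was 11.5% with AGGTGTGA (5.92% of all peaks), 53.8% with GTGTGA (46.4%) and 7.69% in the central 200 bases (6.35%). Of alternatives added after seeing the data, AGGTGTGA left 3 of the 5 distal Eomes peaks, and a limit of 2 kb left 1 of 3 members, Tbkbp1, with its start between regions. No paired analysis was possible because each antibody had 1 list. Without scores, reads or replicates, neither strong from weak peaks nor an absent peak from one below the caller's threshold can be told apart.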
